A study of Mus musculus with 14 samples.

Results

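Expression of 10 p53 target genes that act in cell cycle arrest and the stress response (Cdkn1a, Ccng1, Plk2, Btg2, Psrc1, Sesn1, Sesn2, Zmat3, Trp53inp1 and Gdf15) was examined in sorted ureteric bud cells of the embryonic mouse kidney. They were taken by gene symbol from a table of 55487 genes and read in all 14 libraries of the series. Kidneys were dissociated at E13.5, and the ureteric bud epithelium, which grows into the collecting ducts, was sorted by its GFP. One transgene, Hoxb7-Cre, supplies both the GFP and the recombinase that deletes the floxed gene in this lineage. The groups are 5 libraries labelled Cep120 KO (libraries 2, 4, 5, 6 and 7, titled as Hoxb7 and Cep120 homozygous), 3 Cep120 controls, 3 Pkd1 KO libraries (titled as Hoxb7 and Pkd1 homozygous) and 3 Pkd1 controls. The titles of both control groups mark them as heterozygous while their genotype label is WT, and all 14 titles carry the Hoxb7 name. Cep120 acts in centriole assembly, and mutations of Pkd1, the polycystin-1 gene, cause dominant polycystic kidney disease. Whether each library is a separate embryo, litter or pool is not in the labels, so p-values here reflect only library-to-library spread, which may be technical.

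The transcription factor p53 is held at a low level by Mdm2 and is stabilised by DNA damage, by prolonged mitosis and by loss of centrosomes, the last through 53BP1 and the deubiquitinase Usp28. It binds response elements made of paired decamers near its target genes. Its best known target for arrest is Cdkn1a, and the other genes act on the cell cycle (Ccng1, Btg2), on mitosis and the centrosome (Plk2, Psrc1), on growth and oxidative stress (Sesn1, Sesn2), on splicing and on p53 itself (Zmat3, Trp53inp1) and as a secreted stress signal (Gdf15). Several have other inducers: Btg2 and Plk2 are also immediate early genes, and Sesn2 and Gdf15 are also induced by Atf4 in the integrated stress response.

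The stretches before the annotated starts of 5 of the genes are shown because a p53 element, a single p53 decamer or a cAMP response element lay in them. RefSeq promoters (build GRCm38.p6) were matched for 8 of the 10 genes, with 12 start sites, and Zmat3 and Trp53inp1 were not among them. Each stretch runs 5′ to 3′ on the strand of its gene and ends before the first annotated exon. Capitals mark these matches, which in Sesn1 is a single decamer and not the paired element. They are Cdkn1a upstream of its distal start (chr17:29090729-29090975, plus strand), Ccng1 (chr11:40755312-40755536, minus strand), Sesn1 (chr10:41887189-41887438, plus strand), Btg2 (chr1:134079156-134079405, minus strand) and Plk2 (chr13:110394794-110395043, plus strand).
Cdkn1a, distal start: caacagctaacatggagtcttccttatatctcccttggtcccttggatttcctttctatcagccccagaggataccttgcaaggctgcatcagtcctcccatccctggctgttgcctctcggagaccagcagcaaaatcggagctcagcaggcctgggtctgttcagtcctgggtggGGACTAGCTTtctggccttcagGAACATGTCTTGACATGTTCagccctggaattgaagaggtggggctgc
Ccng1: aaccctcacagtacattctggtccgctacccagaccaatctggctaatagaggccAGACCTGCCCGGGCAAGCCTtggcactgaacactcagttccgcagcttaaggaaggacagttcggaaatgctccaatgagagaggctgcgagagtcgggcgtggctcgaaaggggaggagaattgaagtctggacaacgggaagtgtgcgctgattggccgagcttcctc
Sesn1: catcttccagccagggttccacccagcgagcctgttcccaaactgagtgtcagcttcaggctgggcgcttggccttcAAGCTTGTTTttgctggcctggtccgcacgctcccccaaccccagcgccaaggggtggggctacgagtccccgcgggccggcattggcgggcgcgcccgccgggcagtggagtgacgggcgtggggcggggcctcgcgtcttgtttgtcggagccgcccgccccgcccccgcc
Btg2: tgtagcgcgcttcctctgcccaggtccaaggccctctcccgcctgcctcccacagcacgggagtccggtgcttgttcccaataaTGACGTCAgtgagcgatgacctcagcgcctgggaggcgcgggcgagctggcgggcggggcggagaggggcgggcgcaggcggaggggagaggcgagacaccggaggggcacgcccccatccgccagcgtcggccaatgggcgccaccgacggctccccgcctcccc
Plk2: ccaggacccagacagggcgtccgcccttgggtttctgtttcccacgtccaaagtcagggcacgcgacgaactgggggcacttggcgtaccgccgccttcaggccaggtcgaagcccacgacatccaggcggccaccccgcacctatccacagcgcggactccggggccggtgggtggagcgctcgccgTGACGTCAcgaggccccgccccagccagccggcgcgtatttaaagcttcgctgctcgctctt

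The p53 response element was searched on both strands as 20 bases, 2 adjoining decamers, with at most 2 mismatches from the consensus. It was found in 0.326% of 32851 RefSeq promoters of the same length and in 2 of the 12 examined, 1 each of Cdkn1a and Ccng1. With positions counted from the start site, its first base was at -51 in Cdkn1a (distal start), where it overlaps 1 exact decamer and a further one lies upstream, and at -195 in Ccng1, where it overlaps 1 exact decamer at -185. A single exact decamer of p53 was in 8.36% of all promoters, and of the other genes only Sesn1 had one, at -173. The AP-1 motif TGANTCA, with C or G at N, was in 5.20% of all promoters and in none of the 12 examined. The cAMP response element TGACGTCA was searched after the stretches had been read. It was in 1.79% of all promoters and began at -166 in Btg2 and at -62 in Plk2. These matches are descriptions of the letters, not of binding.

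Total counts were 11347628 to 27967540 per library. Cep120 itself had 7.87, 19.5, 21.2, 13.1 and 16.5 CPM in libraries 2, 4, 5, 6 and 7 labelled Cep120 KO, against 10.6, 6.41 and 9.45 CPM in the Cep120 controls, so its reads were no lower under that label. As the deleted exons are not named, reads over the whole gene check the label only in part, and every direction below is that of libraries so labelled. Pkd1 had 2.68, 2.39 and 2.42 CPM in Pkd1 KO libraries 1, 2 and 3, against 4.60, 3.34 and 3.84 CPM in Pkd1 controls 1, 2 and 3. CPM are counts divided by the library total and scaled by TMM, a normalisation on the bulk of genes. Libraries 4 to 7 labelled Cep120 KO stood apart from the other 10 libraries, with TMM factors of 1.15 to 1.32 against 0.862 to 0.966 and with genes of long transcripts above those of short ones by 1.00 to 1.35 (log2) against -0.27 to 0.41. Libraries 6 and 7 further differed in cell type markers. Their summed CPM of 14 ureteric bud markers was 1390 and 1940, against 3248 to 3725 in the other 12 libraries, and that of 8 nephron progenitor markers was 791 and 605, against 31.6 to 69.7. Of 10 macrophage and 10 erythroid and platelet markers 2 each were called lower (edgeR adjusted p under 0.05), as were 6.26% of all genes. Those called were Fcer1g and Tyrobp, and Pf4 and Itga2b. The median summed CPM was 9.40 and 141 in the libraries labelled Cep120 KO against 48.9 and 3836 in the Cep120 controls. For the macrophage markers it was 15.1 in Pkd1 KO and 8.64 in the Pkd1 controls, so the Cep120 controls were the high group. For the erythroid and platelet markers it was 2695 and 2865 there, and the Cep120 controls ran from 550 to 7534. Only 1 of the 14 ureteric bud markers, Pax2, and 1 of the 8 nephron progenitor markers, Six2, were called higher, as were 8.4% of all genes. Log2 fold changes ran from -0.84 to 1.44 in the first list and from -0.47 to 6.44 in the second. Pax2 had 61.9 and 54.6 CPM in libraries 6 and 7 and 12.6 CPM in library 2, against 11.1 to 15.2 CPM in the Cep120 controls. Six2 had 127 and 86.1 CPM in libraries 6 and 7. No stromal or endothelial marker was called, Foxd1 and Egfl7 having the smallest p (edgeR adjusted p = 0.223 and 0.145). No marker was at 0 in every library. In bulk samples fewer cells of a type and less RNA per cell cannot be told apart.

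In the libraries labelled Cep120 KO, 7 of the 10 genes rose against the Cep120 controls and none fell (edgeR quasi-likelihood test over 16876 genes, Benjamini-Hochberg adjusted p under 0.05). These were Cdkn1a, Ccng1, Plk2, Btg2, Psrc1, Sesn2 and Zmat3, by 0.89 to 2.60 on the log2 scale. Over all genes 14.7% were called, 8.4% higher and 6.26% lower. The median log2 fold change of the 10 genes was 1.04, against 0.12 over all genes tested. Every library labelled Cep120 KO lay above every Cep120 control for 4 of the 10, Cdkn1a, Plk2, Psrc1 and Sesn2, as for 6.41% of all genes. For Plk2 and Psrc1 each of the 5 also lay above all 9 libraries of the other groups, as for 1.49% of all genes. The number of the 10 called depended on the libraries and the fit. It was 0, 1 and 0 without Cep120 control 1, 2 or 3, 1 without library 7 (Plk2), 3 without library 5 or 6, 4 without library 4 or any single library of the Pkd1 line, 3 without libraries 4 and 5 and 8 without libraries 6 and 7. Without library 2 it was 8, the 7 genes and Gdf15. With the Cep120 line fitted alone it was 0, and with offsets for transcript length and GC content it was 2, Plk2 and Psrc1. The calls over all genes moved too. All genes called higher, 1418 in the main fit, numbered 1, 3 and 1 without Cep120 control 1, 2 or 3. They numbered 5, 194, 858 and 1006 without library 7, 6, 5 or 4, and 3224 without library 2. They were 551 without libraries 6 and 7, 1430 without libraries 4 and 5, 0 with the line fitted alone and 136 with the offsets. Fold changes stayed above 0 for all 7 genes in each of these fits.

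**Figure D1:**
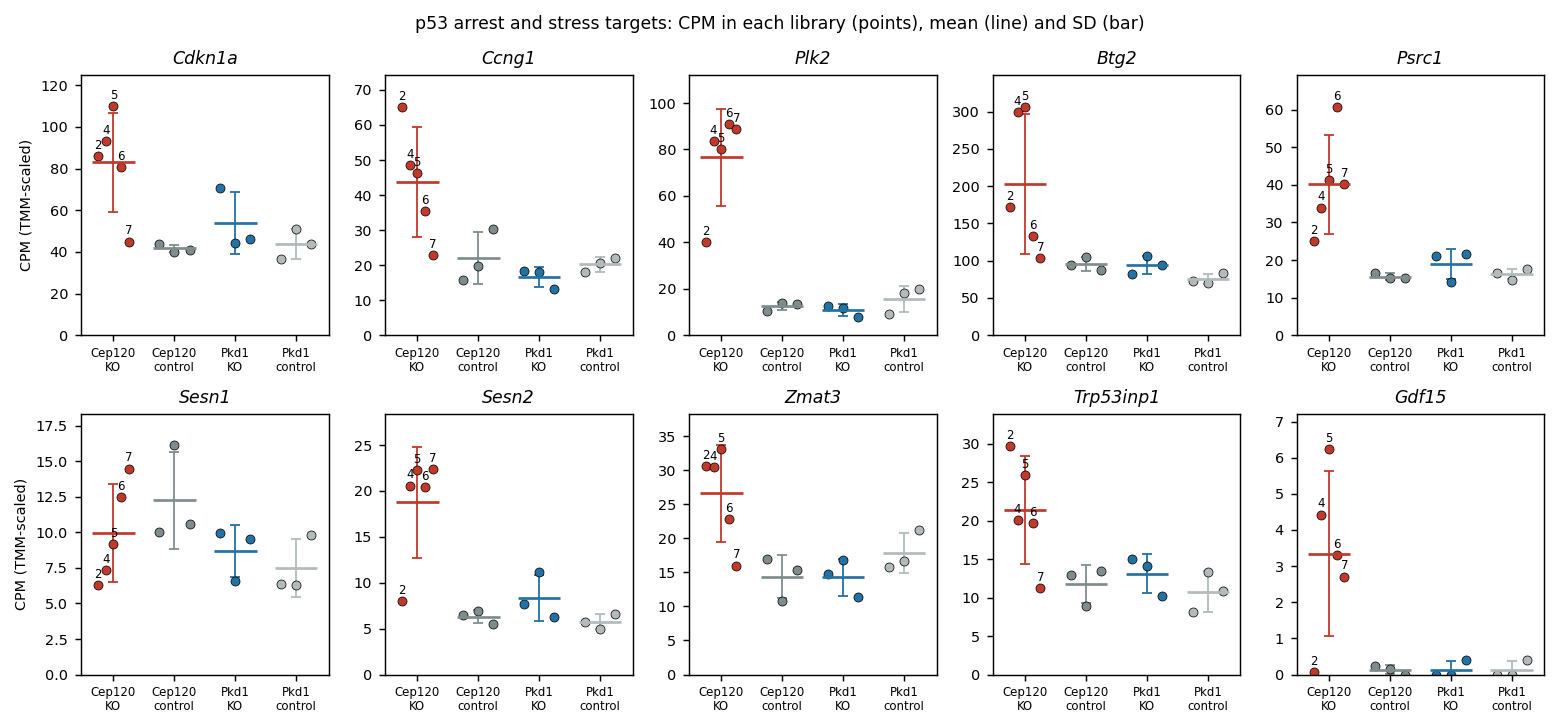
TMM-scaled CPM (y axis, from 0) of each of the 10 genes in every library of the 4 groups (x axis). Points are libraries, with the library number above those labelled Cep120 KO, lines are group means and bars are SD. Plk2 and Psrc1 lie above all other libraries in each of the 5, while library 2 is lowest for Plk2, Psrc1, Sesn2 and Gdf15 and library 7 is lowest for Cdkn1a, Ccng1, Btg2, Zmat3 and Trp53inp1.

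Cdkn1a (ENSMUSG00000023067, chromosome 17, 29090976 to 29100727, plus strand, GRCm38) encodes p21, which inhibits cyclin-dependent kinases and stops cells before S phase. It had 86.0, 93.1, 110.1, 80.7 and 44.99 CPM in libraries 2, 4, 5, 6 and 7 labelled Cep120 KO, against 43.8, 40.2 and 41.1 CPM in Cep120 controls 1, 2 and 3. Libraries 2, 4, 5 and 6 lay well above the controls and library 7 lay just above the highest control, so the groups did not overlap. The means were 83.0 ± 24.0 CPM (SD, n = 5) and 41.7 ± 1.87 CPM (SD, n = 3), and the log2 fold change was 0.99 (SE 0.26, edgeR adjusted p = 0.0315). Pkd1 KO libraries 1 and 3, at 70.8 and 46.3 CPM, and Pkd1 control 2, at 51.1 CPM, lay above library 7. The fold change was 1.21 without libraries 6 and 7 (edgeR adjusted p = 0.0240) and 0.76 without libraries 4 and 5 (adjusted p = 0.0663), in a range of 0.76 to 1.32 over 27 alternative settings with adjusted p from 7.59e-05 to 0.171.

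Ccng1 (ENSMUSG00000020326, chromosome 11, 40748552 to 40755311, minus strand) encodes cyclin G1, which brings protein phosphatase 2A to Mdm2. Its levels were 65.0, 48.5, 46.3, 35.5 and 23.0 CPM in libraries 2, 4, 5, 6 and 7 labelled Cep120 KO, against 15.8, 19.8 and 30.3 CPM in the Cep120 controls. Library 2 was highest and library 7 lay within the range of the controls, so the groups overlapped. The log2 fold change was 0.99 (SE 0.30, edgeR adjusted p = 0.0441), the largest adjusted p among the 7 genes called. Ccng1 was called in 9 of 27 alternative settings and in 1 of the 14 that leave out a library. It was not called with the Cep120 line fitted alone (edgeR adjusted p = 0.140) or with the length and GC offsets (adjusted p = 0.0533), where its fold change was 0.98 and 1.10.

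Btg2 (ENSMUSG00000020423, chromosome 1, 134075170 to 134079120, minus strand) encodes an antiproliferative protein that binds the CCR4-NOT deadenylase. Its levels were 172, 299, 306, 133 and 104 CPM in libraries 2, 4, 5, 6 and 7 labelled Cep120 KO, against 94.9, 105 and 86.9 CPM in the Cep120 controls. Libraries 4 and 5 stood far above the rest and library 7 lay within the control range. The log2 fold change was 1.08 (SE 0.31, edgeR adjusted p = 0.0377), and it was 0.51 to 1.58 over 27 alternative settings, of which 9 called it. With the Cep120 line fitted alone the adjusted p was 0.137 and with the offsets 0.0556 (edgeR).

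Plk2 (ENSMUSG00000021701, chromosome 13, 110395046 to 110400844, plus strand) encodes a polo-like kinase with a role in centriole duplication and in stress responses. It had 40.1, 83.5, 80.3, 91.0 and 88.6 CPM in libraries 2, 4, 5, 6 and 7 labelled Cep120 KO, against 10.6, 13.8 and 13.504 CPM in the Cep120 controls. Library 2 was the lowest of its group and yet above the highest of the other 9 libraries, which was at 19.7 CPM. With means of 76.7 ± 20.9 CPM (SD, n = 5) and 12.6 ± 1.80 CPM (SD, n = 3), the log2 fold change was 2.60 (SE 0.33, edgeR adjusted p = 0.0118). It ranked 2 by p among all genes tested. Across 27 alternative settings the fold change was 1.68 to 2.94 and 23 of them called it. It was not called with library 2 alone, without Cep120 control 1 or 3, or with the Cep120 line fitted alone (edgeR adjusted p = 0.0662 to 0.136 in these).

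Psrc1 (ENSMUSG00000068744, chromosome 3, 108383839 to 108388231, plus strand) encodes a microtubule-associated protein of the mitotic spindle. Its levels were 24.98, 34.0, 41.3, 60.7 and 40.1 CPM in libraries 2, 4, 5, 6 and 7 labelled Cep120 KO, against 16.6, 15.1 and 15.2 CPM in the Cep120 controls. The controls were close together and all 5 libraries lay above them, with library 6 highest. The log2 fold change was 1.37 (SE 0.26, edgeR adjusted p = 0.0290).

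The sestrins are stress-induced inhibitors of mTORC1 signalling. Sesn2 (ENSMUSG00000028893, chromosome 4, 132492032 to 132510501, minus strand) had 7.998, 20.6, 22.3, 20.4 and 22.4 CPM in libraries 2, 4, 5, 6 and 7 labelled Cep120 KO, against 6.46, 6.94 and 5.52 CPM in the Cep120 controls. Libraries 4 to 7 were nearly level and library 2 was close to the controls, though above them. The log2 fold change was 1.57 (SE 0.32, edgeR adjusted p = 0.0290). It was 0.36 with library 2 alone (edgeR adjusted p = 0.702).

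Sesn1 (ENSMUSG00000038332, chromosome 10, 41809935 to 41908424, plus strand) did not share that pattern. It had 6.29, 7.36, 9.16, 12.5 and 14.5 CPM in libraries 2, 4, 5, 6 and 7 labelled Cep120 KO, against 10.0, 16.1 and 10.6 CPM in the Cep120 controls. Libraries 2, 4 and 5 lay below all 3 controls and libraries 6 and 7 between them. The log2 fold change was -0.30 (SE 0.30, edgeR adjusted p = 0.521). Only limma-voom with quality weights called it, as lower (-0.59, adjusted p = 0.0452), and it was 0.05 on the deposited log2 values and 0.02 against all 6 controls pooled, in a range of adjusted p from 0.0452 to 0.975.

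Zmat3 (ENSMUSG00000027663, chromosome 3, 32334792 to 32366014, minus strand), a zinc finger protein that binds RNA and regulates splicing, had 30.6, 30.4, 33.1, 22.8 and 15.98 CPM in libraries 2, 4, 5, 6 and 7 labelled Cep120 KO, against 16.9, 10.8 and 15.3 CPM in the Cep120 controls. Library 7 lay within the control range. The log2 fold change was 0.89 (SE 0.26, edgeR adjusted p = 0.0388), and 9 of 27 alternative settings called it. It was 0.88 with the Cep120 line fitted alone (edgeR adjusted p = 0.133) and 0.48 with the offsets (adjusted p = 0.270). Trp53inp1 (ENSMUSG00000028211, chromosome 4, 11156431 to 11174379, plus strand), which promotes phosphorylation of p53 and autophagy, had 29.7, 20.1, 25.9, 19.6 and 11.3 CPM in the same order, against 12.9, 8.95 and 13.4 CPM in the Cep120 controls. Library 2 was highest and library 7 again overlapped the controls. Its log2 fold change of 0.86 (SE 0.30) was not called (edgeR adjusted p = 0.0652). It was called without libraries 6 and 7 (1.10, edgeR adjusted p = 0.0385) and in 4 other settings, with adjusted p from 0.00187 to 0.218 over all 27.

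Gdf15 (ENSMUSG00000038508, chromosome 8, 70629393 to 70632456, minus strand) encodes a secreted factor of the TGF-beta family that signals cellular stress. It had 1, 83, 152, 92 and 85 reads in libraries 2, 4, 5, 6 and 7 labelled Cep120 KO, against 4, 4 and 0 reads in the Cep120 controls. That is 0.0656, 4.43, 6.24, 3.30 and 2.71 CPM, against 0.235, 0.164 and 0 CPM. Library 2 lay among the controls and the other 4 lay far above them. The summed reads were 413 and 8. Gdf15 was not called (edgeR adjusted p = 0.0581), with a fitted log2 fold change of 4.57 (SE 1.53) that depends on the prior count of the fit. It was called in 6 of the 24 settings that tested it: without library 2 (edgeR adjusted p = 0.0126), by the Wald test of DESeq2 (adjusted p = 0.0116), by limma-voom, without the low-count filter, in the newer edgeR form and against all 6 controls pooled. Adjusted p ran from 0.0116 to 0.173 over the 24.

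**Figure D2:**
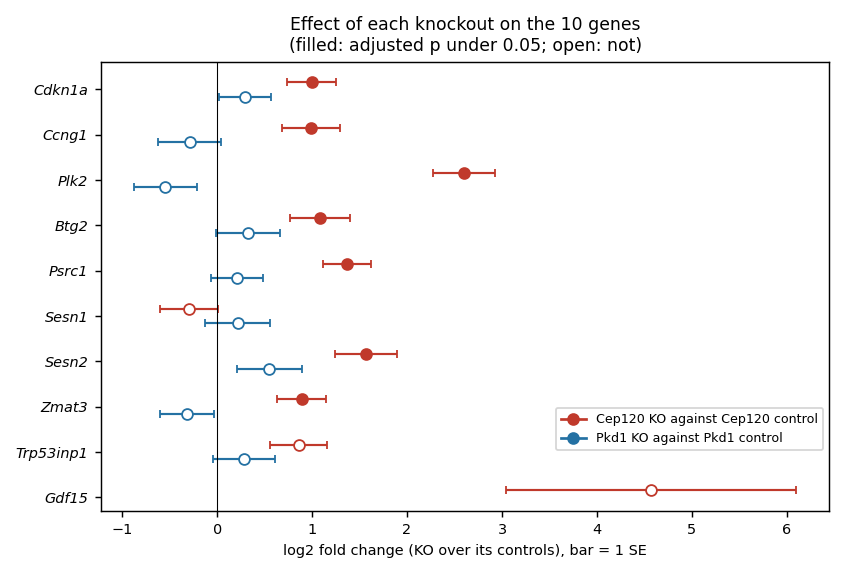
log2 fold change (x axis) of each gene (y axis) in libraries labelled Cep120 KO over Cep120 controls (red, upper) and in Pkd1 KO over Pkd1 controls (blue, lower), with 1 SE, from the edgeR fit. Filled points are the 7 genes called, all of the Cep120 line, with Plk2 at 2.60. Gdf15 is not drawn for Pkd1, where 4 of the 6 libraries had 0 reads.

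The 5 libraries labelled Cep120 KO fell into different profiles over the 10 genes. Against the mean of the Cep120 controls, the median log2 difference of the 10 was 0.95, 1.18, 1.40, 0.86 and 0.23 in libraries 2, 4, 5, 6 and 7, and it was -0.31 to 0.07 in the other 9 libraries. Library 2, which had none of the length trend or TMM shift of libraries 4 to 7 and ureteric bud and nephron progenitor markers at 3338 and 36.5 summed CPM, was high for Ccng1, Trp53inp1, Zmat3, Cdkn1a and Btg2. It was the lowest of its group for Plk2, Psrc1, Sesn1, Sesn2 and Gdf15. Library 7 was the reverse, with Plk2 and Sesn2 near their highest levels and Cdkn1a, Ccng1, Zmat3 and Trp53inp1 next to the controls. The 5 genes lowest in library 7 were Cdkn1a, Ccng1, Btg2, Zmat3 and Trp53inp1. The part of the nephron progenitor signal or of the length trend in these profiles was not tested.

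**Figure D3:**
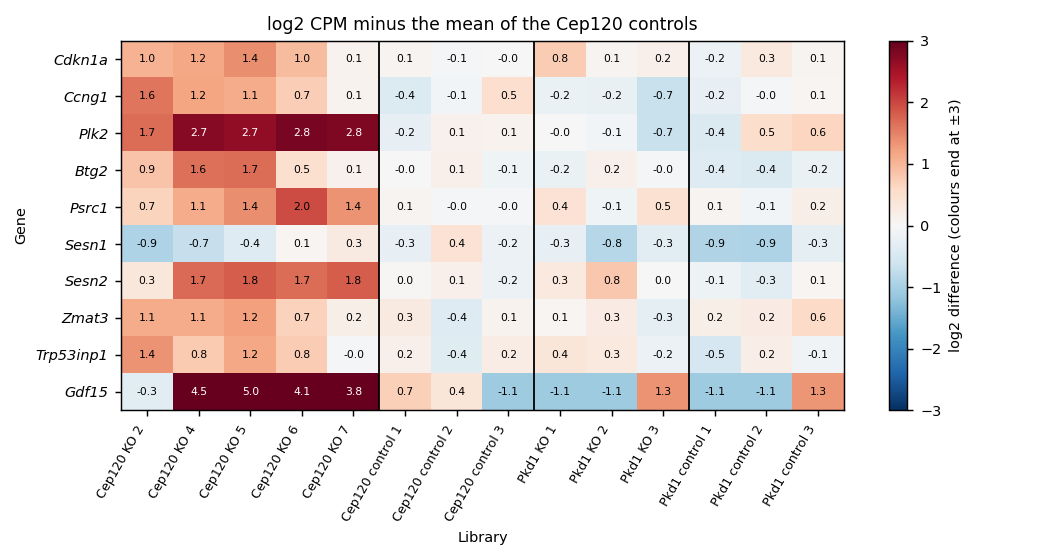
Difference of log2 CPM from the mean of the Cep120 controls for each gene (rows) in each library (columns, black lines between groups), printed in each cell, with colours ending at ±3. In the libraries labelled Cep120 KO the cells lie above 0 except for Sesn1 in libraries 2, 4 and 5, Gdf15 in library 2 (-0.32) and Trp53inp1 in library 7 (-0.04).

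When library 2 was compared alone with the Cep120 controls, over 17972 genes, none of the 9 genes tested was called, and 0.0278% of all genes were called (edgeR quasi-likelihood test, adjusted p under 0.05). At an unadjusted p under 0.05, 7 of the 9 were higher, as were 4.56% of all genes, and Sesn1 was lower. Ccng1 had a log2 fold change of 1.59 (SE 0.29, unadjusted p = 0.000108, adjusted p = 0.0693) and ranked 28 by p among the genes tested. Btg2 ranked 36, Plk2 45, Cdkn1a 64, Trp53inp1 70 and Zmat3 126. This test assumes that the single library varies like the libraries of the other groups.

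In Pkd1 KO no gene of the 10 was called against the Pkd1 controls (edgeR adjusted p = 1 for each), and 0% of all genes were called, 259 having an unadjusted p under 0.05. None of the 10 had an unadjusted p under 0.05. The fit shares 1 estimate of spread per gene over the 4 groups, which varied unequally. The chi-square per gene between libraries was 4.55 to 295 in the group labelled Cep120 KO and 12.6 to 32.5 within the Pkd1 groups. With the Pkd1 line fitted alone 753 genes had an unadjusted p under 0.05 (edgeR), and none of the 10 was called. The lack of calls thus does not show the lack of an effect. DESeq2 called 2 genes higher and 1 lower, limma-voom 1 lower, and neither called any of the 10. Cdkn1a had 70.8, 44.2 and 46.3 CPM in Pkd1 KO libraries 1, 2 and 3, against 36.7, 51.1 and 43.9 CPM in Pkd1 controls 1, 2 and 3, a log2 fold change of 0.29 (SE 0.28). Plk2 had 12.5, 11.9 and 7.88 CPM in Pkd1 KO, against 9.20, 18.2 and 19.7 CPM in the Pkd1 controls, a log2 fold change of -0.55 (SE 0.33). Sesn2 had 7.68, 11.1 and 6.29 CPM in Pkd1 KO, against 5.68, 4.94 and 6.59 CPM in the Pkd1 controls, a log2 fold change of 0.55 (SE 0.35). The groups overlapped for all 10 genes, while 4.88% of all genes had every Pkd1 KO library above every Pkd1 control and 6.19% had every one below. Excluding Gdf15, whose reads were 0, 0 and 6 against 0, 0 and 9, fold changes lay between -0.55 and 0.55.

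The difference between the effects of the 2 deletions was called for none of the 10 genes and for 0% of all genes with edgeR's quasi-likelihood test, where 5 of the 10 and 3436 of all genes had an unadjusted p under 0.05. Plk2 ranked 1 of all genes, with a difference of 3.15 (SE 0.46, unadjusted p = 7.23e-06, adjusted p = 0.122). Differences for Ccng1, Zmat3, Psrc1 and Sesn2 were 1.28 (SE 0.44), 1.21 (SE 0.38), 1.15 (SE 0.37) and 1.02 (SE 0.46), with edgeR adjusted p from 0.176 to 0.234. For Cdkn1a the difference was 0.70 (SE 0.37, adjusted p = 0.296). DESeq2 called 1 of the 10, Plk2 (adjusted p = 3.54e-07), with 450 genes higher and 265 lower over all. limma-voom called 7 of the 10, with 2259 higher and 2124 lower, and limma-trend none of the 10. Without library 2 labelled Cep120 KO, edgeR called Plk2, Psrc1 and Sesn2 (adjusted p = 0.000305, 0.0125 and 0.0164), with 1717 and 1423 genes called higher and lower. Over all settings the adjusted p for Plk2 ran from 3.54e-07 to 0.328.

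Levels between the genes were compared on the deposited TPM, which are per length. In the libraries labelled Cep120 KO, Btg2 was highest at 103 ± 51.4 TPM (SD, n = 5), followed by Cdkn1a at 77.8 ± 21.6, Plk2 at 42.6 ± 16.5, Psrc1 at 38.3 ± 16.7, Ccng1 at 18.5 ± 4.09 and Sesn2 at 7.87 ± 3.19 TPM. Trp53inp1, Sesn1, Zmat3 and Gdf15 lay between 4.23 and 5.76 TPM on average. Of the 9 neighbouring pairs in this order only Ccng1 and Sesn2 did not overlap between libraries. In the Cep120 controls Btg2 had 30.6 ± 2.72 TPM (SD, n = 3), Cdkn1a 21.1 ± 1.39, Psrc1 8.72 ± 0.0721, Ccng1 6.16 ± 2.41, and Plk2 and Sesn1 4.12 each. Trp53inp1, Zmat3 and Sesn2 had 2.03, 1.97 and 1.63 TPM and Gdf15 0.116 TPM. The first 2 steps, that from Sesn1 to Trp53inp1 and that to Gdf15 did not overlap. Plk2 was thus 3rd of the 10 in the libraries labelled Cep120 KO and 5th in their controls, and Sesn2 was 6th against 9th. The order in both groups of the Pkd1 line began with Btg2, Cdkn1a, Psrc1, Ccng1, Plk2 and Sesn1 and ended with Gdf15, as in the Cep120 controls.

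The TPM scale itself was shifted in libraries 4 to 7. Over 11902 genes the median log2 ratio of TPM to the mean of the Cep120 controls was 0.55 to 0.66 in these, 0.07 in library 2 and -0.06 to 0.24 in the other 9. The ratio of mean TPM between libraries labelled Cep120 KO and Cep120 controls was 1.51 for the median gene. For Cdkn1a it was 3.68, where CPM gave 1.99, and for Plk2 it was 10.4, where CPM gave 6.07. For Sesn1 TPM gave 1.33 and CPM 0.813, so its direction depends on the scale. Fold changes between groups are therefore given from counts.

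The reads of Cdkn1a were split by the authors' estimates over 5 annotated transcripts. Cdkn1a-202 begins at 29090979, downstream of the p53 element shown above, and Cdkn1a-201 begins at 29093769. Cdkn1a-202 took 7.94, 3.60, 1.48, 36.2 and 38.1% of the Cdkn1a reads in libraries 2, 4, 5, 6 and 7 labelled Cep120 KO, against 0, 4.05 and 6.40% in the Cep120 controls. Libraries 6 and 7, those with high nephron progenitor markers, stood apart, and no other library of the 14 passed 10.4%. In reads these shares were 815 and 538, against 0 to 121 in the other 12. The shares are estimates among transcripts that share most of their sequence, and they are given as a description. Between the libraries labelled Cep120 KO and the Cep120 controls, the share of Cdkn1a-201 did not overlap (57.5 to 89.1% against 90.4 to 98.4%). That held for it alone among 7 transcripts of Cdkn1a, Plk2, Psrc1 and Trp53inp1 with a share of at least 10% in any library. How often it holds over all transcripts was not counted. For Cdkn1a-201, Pkd1 KO library 2 (84.8%) and Pkd1 control 1 (86.6%) fell inside the span of the libraries labelled Cep120 KO. The remaining libraries of the Pkd1 line lay at 92.4 to 98.2%. Cdkn1a shares 273 exonic bases with an unnamed gene on the opposite strand, and the library kit does not mark the strand.

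**Figure D4:**
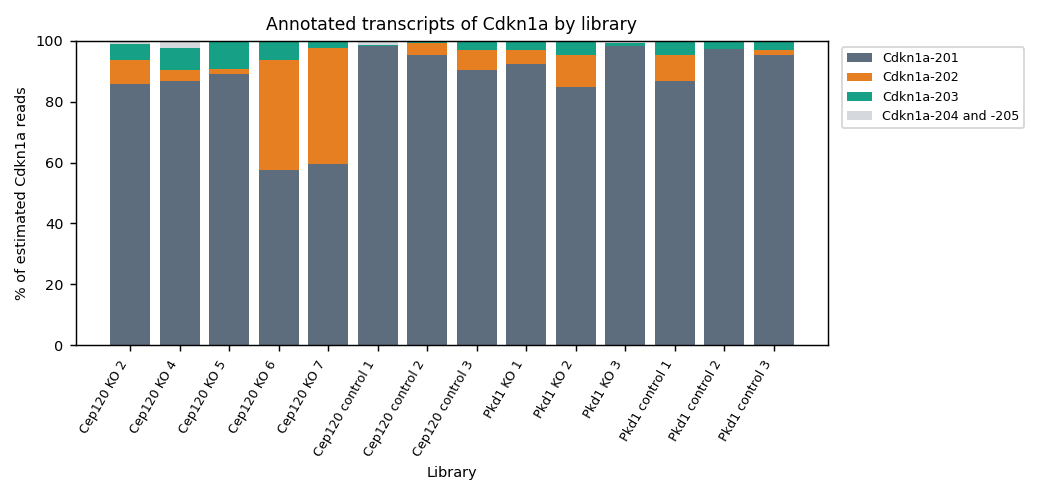
Share (%, y axis from 0 to 100) of the estimated Cdkn1a reads in each annotated transcript, stacked, for each library (x axis). Cdkn1a-202, which begins at the distal start, takes 36.2 and 38.1% in libraries 6 and 7 labelled Cep120 KO and at most 10.4% elsewhere.

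The genes closest to Cdkn1a in profile were found by the root-mean-square difference of log2 CPM over the 14 libraries, each taken from the mean of the Cep120 controls, among 9632 genes. They were Ccdc120 (0.26), Trp53inp1 (0.26), Zmat3 (0.31), Zfp599 (0.32) and Susd6 (0.32), so 2 of the 5 are among the 10 genes. Btg2 ranked 79, Ccng1 214, Psrc1 393, Sesn2 2421, Sesn1 7769 and Plk2 8053 by this measure. Ccdc120 was at 15.5, 14.4, 16.3, 10.1 and 8.95 CPM in libraries 2, 4, 5, 6 and 7 labelled Cep120 KO, against 5.23, 7.31 and 6.75 CPM in the Cep120 controls.

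Other genes were read from lists of 112 tested genes, of which 34 were called higher in the libraries labelled Cep120 KO, against 8.4% of all genes. Without libraries 6 and 7 it was 26, where 551 of all 16028 genes tested were called higher. Of the 34, 14 were among 73 genes of the p53 pathway and paralogs of the 10, and 20 among 39 immediate early, integrated stress response and heat shock genes. Of 15 genes for p53 and its regulators 4 rose and none fell, with a median log2 fold change of 0.49. They include Mdm2, the ubiquitin ligase of p53 and itself its target, at 31.4 ± 10.8 CPM (SD, n = 5) against 14.9 ± 2.78 CPM in the Cep120 controls (SD, n = 3; log2 fold change 1.07, edgeR adjusted p = 0.0338). Mdm2 was at 15.5 CPM in library 2, within the control range of 13.02 to 18.1 CPM, and at 28.8 to 42.6 CPM in libraries 4 to 7. Trp53bp1, which encodes 53BP1, rose by 1.04 (edgeR adjusted p = 0.0312), and Pidd1, a scaffold of the PIDDosome at extra centrosomes, by 0.93 (adjusted p = 0.0305).

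Of 14 p53 targets for cell death 4 rose and none fell, with a median of 0.92. Eda2r, a death receptor, had 10.3, 5.599, 6.98, 4.51 and 1.81 CPM in libraries 2, 4, 5, 6 and 7 labelled Cep120 KO, against 0.921 to 1.06 CPM in the Cep120 controls (log2 fold change 2.53, edgeR adjusted p = 0.0290). Like Ccng1 and Trp53inp1 it was highest in library 2 and lowest in library 7. The nuclease gene Aen rose by 0.98 and the Akt inhibitor gene Phlda3 by 2.20 (edgeR adjusted p = 0.0290 and 0.0299), Phlda3 being highest in library 7 at 35.9 CPM. Of 14 targets for repair and metabolism 2 rose and none fell: the DNA damage sensor gene Xpc (1.44, adjusted p = 0.0374) and the polymerase gene Polk (1.23, adjusted p = 0.0325).

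Of 22 cell cycle genes that p21 lowers through the DREAM complex, 3 rose and 2 fell, with a median log2 fold change of -0.07. The genes named by rule moved both ways. The proliferation marker gene Mki67 had 4.26, 73.5, 70.9, 116 and 103 CPM in libraries 2, 4, 5, 6 and 7 labelled Cep120 KO, against 3.93 to 10.1 CPM in the Cep120 controls (log2 fold change 3.31, edgeR adjusted p = 0.0290). Library 2 was at the level of the controls for it. Top2a, a topoisomerase gene, rose by 0.98 and Cks2, a small partner of cyclin-dependent kinases, fell by 0.91 on the log2 scale (edgeR adjusted p = 0.0305 for both). Of the 8 paralogs of the genes, Sesn3 alone was called, at 38.0 ± 3.39 CPM (SD, n = 5) against 22.6 ± 3.73 CPM in the Cep120 controls (SD, n = 3; log2 fold change 0.75, edgeR adjusted p = 0.0308).

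Lists for the other inducers of these genes were read beside all genes, of which 8.4% were called higher and 6.26% lower. The median log2 fold change of all genes was 0.12, above that of the integrated stress response list. Of 17 immediate early genes 14 rose and none fell, with a median of 2.65. Egr1 had 11.2 CPM in library 2 and 123 to 175 CPM in libraries 4 to 7 labelled Cep120 KO, against 12.2 to 13.4 CPM in the Cep120 controls (log2 fold change 3.23, edgeR adjusted p = 0.0290). Klf6 and Jund rose by 1.89 and 1.46. Of 14 genes of the integrated stress response 3 rose and 2 fell, with a median of 0.05. Those called with the smallest p were Ppp1r15a, which encodes a phosphatase subunit that ends the response, and Ddit3, the CHOP gene, which rose by 2.79 and 2.04 (edgeR adjusted p = 0.0290 for both). Atf4, its transcription factor, had 63.3 CPM in library 2 and 124 to 167 CPM in libraries 4 to 7, against 52.6 to 68.9 CPM in the Cep120 controls, a log2 fold change of 1.09, while Asns, an asparagine synthetase gene that Atf4 induces, fell by 0.82 (edgeR adjusted p = 0.0299 for both). Of 8 heat shock genes 3 rose and none fell, with a median of 0.73. Hsph1 and Dnajb1, cochaperone genes, rose by 1.03 and 0.66 (edgeR adjusted p = 0.0300 and 0.0367). The third, Hspa1a, rose by 5.74 (adjusted p = 0.0299), with 100.45 and 158 CPM in libraries 6 and 7 and 1.90 to 11.2 CPM in the other 3. In library 2, Atf4, Mki67, Mdm2 and Gdf15 were thus within the control range and Egr1 just below it. Ccng1, Trp53inp1 and Eda2r had their highest level there. Klf6 (52.3 CPM against at most 37.1), Jund, Ddit3, Dnajb1, Hspa1a and, narrowly, Ppp1r15a (8.98 against at most 8.90) were above every Cep120 control there. Hsph1 and the p53 target Xpc lay within the control range, and Asns lay below it. The part of these programmes in the levels of the 10 genes was not tested.

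**Figure D5:**
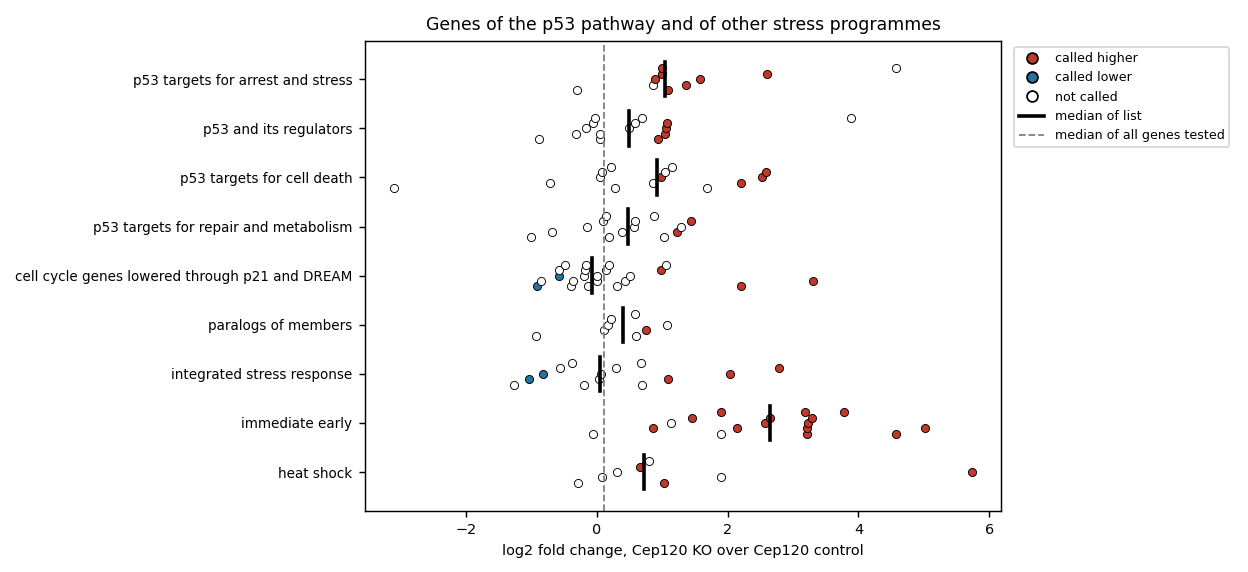
log2 fold change in libraries labelled Cep120 KO over Cep120 controls (x axis) for each gene of the lists (y axis), with the median of each list (black bar) and of all genes tested (dashed line, 0.12). Filled red and blue points were called higher and lower. The immediate early genes have the highest median, 2.65, followed by the p53 targets for arrest and stress, 1.04.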

How the data were processed

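RNA of GFP-sorted ureteric bud cells was copied with the SMARTer Ultra Low RNA kit, per the labels' protocols. The authors deposited estimated counts per gene and per transcript (expected counts, not normalised), TPM, and log2 of CPM plus a small constant. The submitters' processing notes name DRAGEN and mm9. How reads with several placements were treated is not given in the sources used here. Positions are from GENCODE M21 (GRCm38) by Ensembl identifier, and promoters from RefSeq (GRCm38.p6). The table of counts had 55774 lines, and 287 that repeated an identifier were dropped. Between 88.4 and 91.6% of count values per library were whole, and all were rounded.

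Tests used R 4.3.3 with edgeR 4.0.16: filterByExpr at a minimum count of 10 (16876 genes), TMM, and a quasi-likelihood model in its legacy form over all 14 libraries, 1 mean a group (4 groups, 10 residual degrees of freedom). Calls needed an adjusted p under 0.05 (Benjamini-Hochberg, all genes tested). The fit was also run on simulated data with the same spread in all groups, unlike these libraries, and no result here rests on it. Log2 CPM used a prior count of 2. Alternatives were run with DESeq2 1.42.0 and limma 3.58.1 among 28 settings. Tables and plots used Python 3.11.15, pandas 2.3.3 and matplotlib 3.10.9. The counts carry no molecular identifiers, so totals of 11347628 to 27967540 reads per library do not give the number of molecules counted.

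The 10 genes, the lists and the alternatives were chosen with earlier results of these data known. Named were the 10 genes, from each list up to 3 called genes with the smallest p (or the 1 with the smallest p, and the first called in the opposite direction), and the 5 genes closest to Cdkn1a at a mean of at least 5 CPM. No set test was run. Libraries 4 and 5 labelled Cep120 KO differed least of all pairs within a group (chi-square per gene 4.55, the next pair 12.6). They differed by more than sampling noise, which does not show that they are separate samples. They were counted as 2, and with their counts summed 4 of the 10 genes were called. Some transcript estimates of Sesn1 and Zmat3 are not used here.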

Additional observations from a re-analysis of the deposited data

Results flagged for a closer look

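The CPM of 2 genes had a library far from the other 4 in the group labelled Cep120 KO. Plk2 was at 40.1 CPM in library 2 and at 80.3 to 91.0 CPM in libraries 4 to 7, and the gap took 0.788 of the range, past Dixon's critical value of 0.71 for 5 libraries. Sesn2 was at 7.998 CPM in library 2 and at 20.4 to 22.4 CPM in the others, where the gap took 0.862 of the range. Chance passes this limit in about 1 in 20 groups. Without library 2 the log2 fold change was 2.76 for Plk2 and 1.76 for Sesn2.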

How the results depend on the processing

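Between the libraries labelled Cep120 KO and the Cep120 controls, 7 of the 10 genes were called higher. The count was 0 with the Cep120 line fitted alone, where 0 genes of any kind were called higher or lower and 4081 had an unadjusted p under 0.05. It was 3 without libraries 4 and 5, 4 with libraries 4 and 5 summed, 0 with library 2 alone, and 2 (Plk2 and Psrc1) with offsets for transcript length and GC content, an alternative chosen after seeing the data. Leaving out 1 library gave 0 to 8. All genes called higher and lower numbered 1418 and 1057. They were 2491 and 1708 with the Wald test of DESeq2, 3605 and 3060 with limma-voom, 2638 and 556 with limma-trend, 551 and 477 without libraries 6 and 7, 932 and 468 with libraries 4 and 5 summed, 2 and 3 with library 2 alone and 136 and 105 with the offsets. They were 2404 higher with all 6 controls pooled and 635 lower without libraries 4 and 5, and 1 to 3224 and 1 to 2495 without 1 library each. Of 112 context genes 34 were called higher, against 0 with the line fitted alone, 1 with library 2 alone, 10 with the offsets and 0 to 45 without 1 library. In Pkd1 KO no setting called any of the 10, and all genes called numbered 2 higher and 1 lower with the line fitted alone and with DESeq2, and 1 lower with limma-voom. For the difference between the effects, 1 of the 10 was called without the low-count filter, 1 with DESeq2 and 7 with limma-voom, and 0 to 3 without 1 library. All genes called there numbered 1 higher without the filter, 450 and 265 with DESeq2, 2259 and 2124 with limma-voom, 1 higher with limma-trend, 2 and 2 without libraries 6 and 7, 1 lower without libraries 4 and 5, 3 and 2 with library 2 alone, and 0 to 1717 and 0 to 1423 without 1 library. Their causes were not tested. The fold changes of the 7 genes stayed above 0 in all 27 settings run for this comparison. Gdf15 was filtered out in 3 of them. TPM were also divided by TMM factors in the libraries labelled Cep120 KO. The median of the mean TPM of the 10 genes then changed by less than its SD between libraries.

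No paired analysis was possible for the Cep120 line because its groups share only the number 2. In the Pkd1 line, same-numbered libraries correlated at -0.05, -0.03 and -0.12 in their deviations over 16876 genes. Pairs of unlike number correlated at -0.09 to 0.12. With 3 libraries a group these values cannot show whether the numbers pair samples, which the labels do not say. The fit with a replicate block, with 2 residual degrees of freedom, called 0 of the 10 genes and 0 of all.

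The depth gave 3 counts a value of 0.0955 to 0.278 CPM, so Gdf15 in the controls lies at the limit of detection, and 3 control libraries a line limit every comparison.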

Other observations

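Psrc1 reads were split over its annotated transcripts differently in the 2 Pkd1 groups. Psrc1-202, which begins at 108383859 on chromosome 3 (GRCm38), took 94.9, 71.4 and 75.2% of the estimated reads in Pkd1 KO libraries 1, 2 and 3, against 32.2, 0 and 24.1% in Pkd1 controls 1, 2 and 3. Psrc1-201, which begins at 108383839, took 0, 24.8 and 20.7% in Pkd1 KO and 61.1, 93.7 and 66.3% in the Pkd1 controls. Neither overlapped between these groups. They were the only 2 to do so among 7 transcripts of Cdkn1a, Plk2, Psrc1 and Trp53inp1 with a share of at least 10% in any library. The 2 shares make up most of the reads, so they are not separate observations. How often shares do not overlap over all transcripts was not counted. The level of Psrc1 as a whole overlapped. Psrc1-202 took 11.1 to 37.8% in the libraries labelled Cep120 KO and 17.1 to 48.9% in the Cep120 controls. These are estimates for transcripts with starts close together, noticed in the data and not tested.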
